A study of Mus musculus with 18 samples.

Results

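Collagen chains are the polypeptides that wind into the triple helices of the extracellular matrix. The chains described here are the genes of the deposited expression table whose symbol has the form Col, a number, a and a number, with a value above 0 in at least 3 of the 18 libraries. They number 44 of the 20825 genes in the table, namely 11 fibrillar chains, 8 basement membrane chains and 25 other chains. Members were taken by symbol and not by how they changed.

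Kidney RNA of C57BL/6 mice, labelled as aged 11 weeks, was profiled by RNA sequencing in 6 groups of 3 libraries, which the labels number as biological replicates. The tested mice had UIR, the submitters' term for clamping of the right renal pedicle for 45 min followed by reperfusion with the left kidney left in place, and their controls had a sham operation. Kidneys were taken at day 1, day 3 or day 21 after surgery. The labels name neither the kidney that was sequenced in a UIR mouse, nor the sex of the mice, nor the steps of the sham operation.

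Each collagen is built from its own set of chains, and the set decides the kind of matrix. Fibrillar collagens build the banded fibres of the interstitium and of scars, type IV collagen builds the sheet under epithelia and endothelia, and type VI, fibril-associated, transmembrane and short-chain network collagens link or line these structures. In the kidney, the glomerular basement membrane of the adult is known for type IV collagen made of the Col4a3, Col4a4 and Col4a5 chains, while Col4a1 and Col4a2 are spread over basement membranes of tubules, vessels and mesangium.

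Values are FPKM, fragment counts scaled by transcript length and by library size, so that levels of different chains are compared per length of transcript. A log2 fold is a difference of mean log2(FPKM + 1), UIR minus sham, which understates the change of chains with low values. It was called where limma's test, adjusted by Benjamini and Hochberg over 14716 tested genes, gave a p under 0.05. The tested genes reached 1 FPKM in at least 3 libraries; 29 chains did so (7 fibrillar, 8 basement membrane and 14 other) and 15 did not. Of the 29, 7 passed only through UIR libraries, with fewer than 3 sham libraries at 1 FPKM (Col5a3, Col4a6, Col6a5, Col20a1, Col8a2, Col17a1 and Col23a1), so that these had to differ somewhere. Col20a1 reached 1 FPKM in 1 sham library and the other chains of this group in 0. With 3 libraries a group, an exact permutation test of a single value cannot go below p = 0.1, and FPKM carries no read depth, so no counting interval is given.

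The 18 libraries summed to between 424207 and 549490 FPKM and held between 12000 and 14156 genes at 1 FPKM or more, with the highest gene numbers at day 21 of UIR. The kidney label was borne out by the proximal tubule markers, which summed to 47090 to 55150 FPKM in sham kidneys at day 3. In UIR kidneys of that day they summed to 705 to 829 FPKM. Values were relative to the library: the median log2 fold over all tested genes was -0.03, 0.44 and 0.53 at days 1, 3 and 21, and of the genes called at day 3 76.3% were higher, and at day 21 75.2%. A median-of-ratios scaling moved that median to 0.02 at day 3 and 0.01 at day 21, and the share of the called genes that were higher to 50.8% and 50.2%. Under it, 5 chains were called higher and 6 lower at day 1, 18 and 4 at day 3, and 23 and 4 at day 21. Of all 14572 genes tested with this scaling, 5124 were called higher and 4960 lower at day 3, and 5484 and 5447 at day 21. At day 1, 50.8% of all genes called with it were higher. In these bulk samples, a change in the number of cells of a type and a change in the RNA per cell cannot be told apart.

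Summed over all 44 chains, collagen took 0.0696%, 0.190% and 0.421% of the library's FPKM in UIR kidneys at days 1, 3 and 21, against 0.0638%, 0.0446% and 0.0508% in sham kidneys of the same days. The sum averaged 339 ± 52.6 FPKM in UIR kidneys at day 1 and 310.2 ± 13.9 FPKM in sham kidneys (SD, n = 3 each). At day 3 it averaged 820 ± 212 FPKM in UIR kidneys and 235 ± 25.7 FPKM in sham kidneys. At day 21 it averaged 1815 ± 106 FPKM in UIR kidneys and 251 ± 14.7 FPKM in sham kidneys. The UIR and sham libraries overlapped in this sum at day 1 and stood apart at days 3 and 21, with UIR above.

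The makeup of the collagen sum differed by day. Fibrillar chains held 7.59% ± 0.723 of it in UIR kidneys at day 1, against 24.3% ± 2.41 in sham kidneys (SD, n = 3 each, as for the other shares). At day 3 their share was 23.9% ± 7.76 in UIR kidneys, against 16.7% ± 1.28 in sham kidneys, with overlap between the libraries. At day 21 it was 47.2% ± 2.23 in UIR kidneys, against 14.7% ± 0.706 in sham kidneys. Basement membrane chains were the larger part in every group but UIR at day 21: they held 87.3%, 67.3% and 37.5% in UIR kidneys at days 1, 3 and 21, against 69.1%, 74.3% and 76.3% in sham kidneys. Col27a1 alone averaged 7.66 of the 25.9 fibrillar FPKM in UIR kidneys at day 1, and 54.5 of the 75.2 fibrillar FPKM in sham kidneys of that day.

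**Figure D1:**
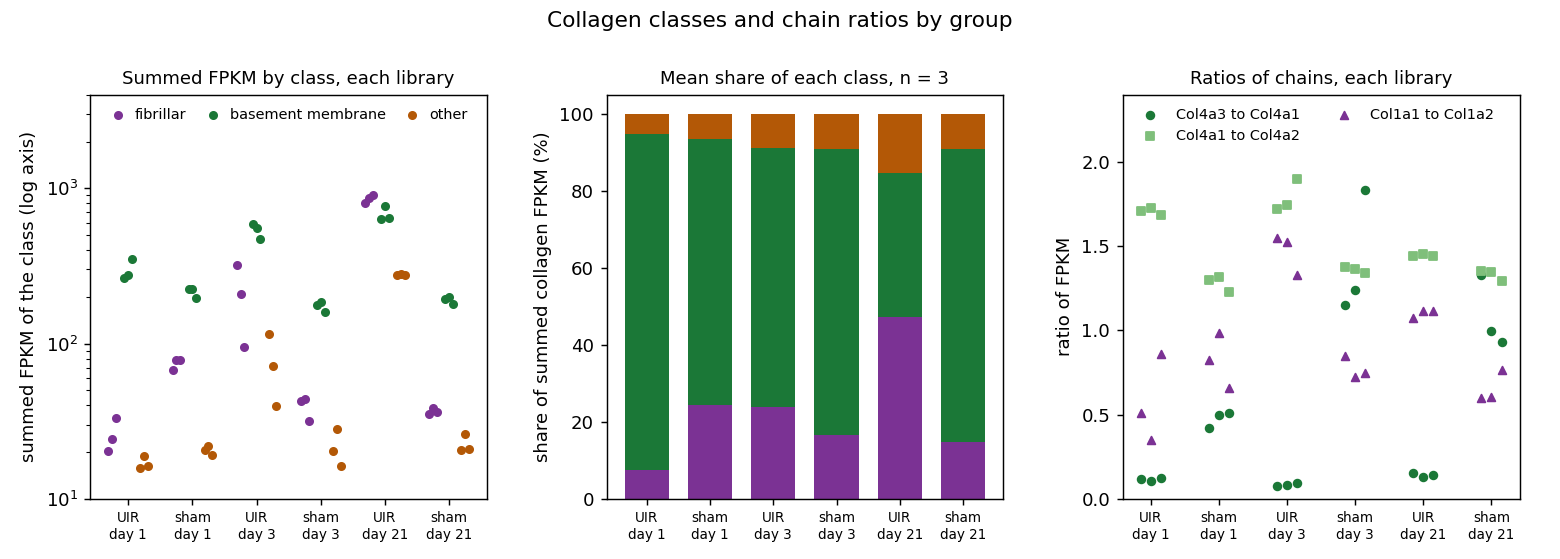
Left, FPKM summed over the fibrillar, basement membrane and other chains in each of the 18 libraries, on a log axis. Middle, the mean share of each class in the collagen sum (%, n = 3 libraries), with fibrillar chains at the bottom, basement membrane chains in the middle and other chains on top. Right, ratios of FPKM between chains in each library. In the left panel, the fibrillar sums of UIR kidneys at day 21 lie between 799.7 and 901 FPKM and those of sham kidneys between 35.2 and 38.5.

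Over the chains tested, 4 were called higher and 7 lower in UIR kidneys at day 1, where 28.5% of all tested genes were called higher and 31.1% lower. Both shares of the chains lie below those of all genes, and their median log2 fold of -0.05 stood beside -0.03 for all tested genes. At day 3, 19 of 29 were called higher and 3 lower, with 57.6% and 17.9% of all tested genes, and the median was 1.27 beside 0.44. At day 21, 26 were called higher and 3 lower, with 60.7% and 20.1% of all tested genes, and the median was 2.12 beside 0.53. Among the 22 chains that reached 1 FPKM in at least 3 sham libraries, 2, 16 and 19 were called higher and 7, 3 and 3 lower at days 1, 3 and 21.

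**Figure D2:**
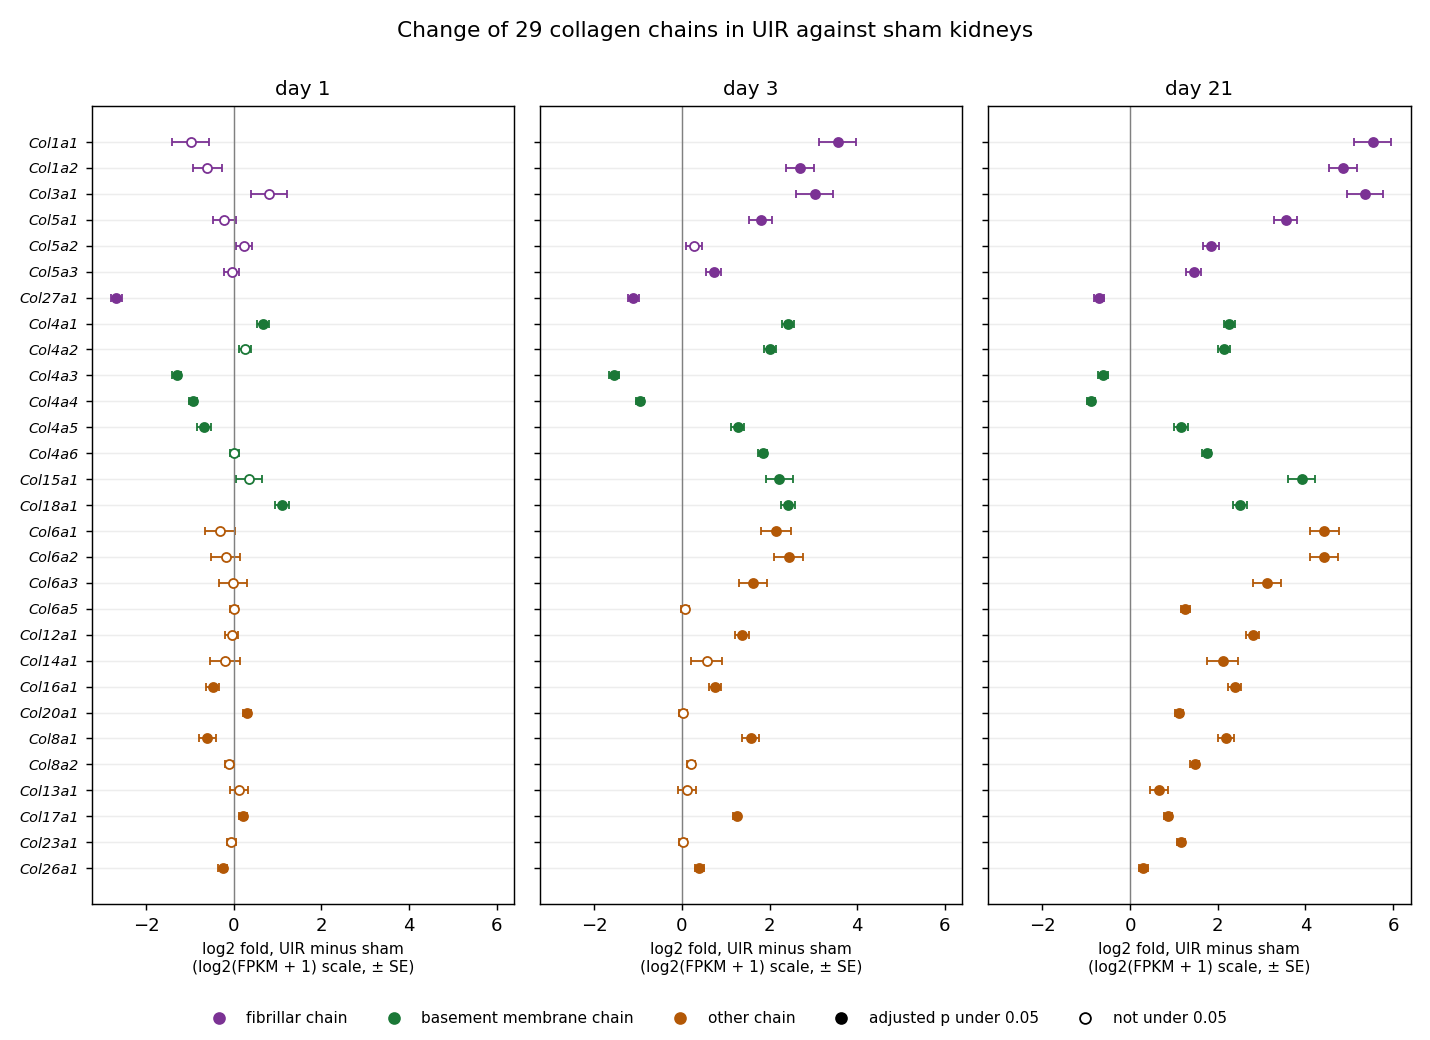
Log2 fold of the 29 tested chains, UIR minus sham on the log2(FPKM + 1) scale, at days 1, 3 and 21, with bars for ± 1 SE from limma and filled points where the adjusted p was under 0.05. Col27a1, Col4a3 and Col4a4 lie left of 0 on all 3 days, and the other chains tested lie right of 0 at day 21, from 0.31 for Col26a1 to 5.53 for Col1a1.

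The bases before the start of 3 fibrillar genes are shown because these genes differ in direction: Col3a1 and Col5a1 were higher in UIR kidneys at days 3 and 21, and Col27a1 was lower. Each is the plus strand of the 250 bases before the RefSeq start on build GRCm38.p6, whereas the submitters' processing notes name build mm9 for the expression values. Capitals mark the letters TATAAA in Col3a1, and GGGCGG or its reverse complement CCGCCC, the GC box, in Col5a1 and Col27a1. Col3a1 lies at chr1:45311288-45311537, Col5a1 at chr2:27886175-27886424 and Col27a1 at chr4:63215162-63215411.
Col3a1: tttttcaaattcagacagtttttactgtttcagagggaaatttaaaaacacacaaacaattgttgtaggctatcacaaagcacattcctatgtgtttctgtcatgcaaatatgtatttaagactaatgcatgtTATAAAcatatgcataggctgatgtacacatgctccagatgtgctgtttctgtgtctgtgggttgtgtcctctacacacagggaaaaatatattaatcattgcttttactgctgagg
Col5a1: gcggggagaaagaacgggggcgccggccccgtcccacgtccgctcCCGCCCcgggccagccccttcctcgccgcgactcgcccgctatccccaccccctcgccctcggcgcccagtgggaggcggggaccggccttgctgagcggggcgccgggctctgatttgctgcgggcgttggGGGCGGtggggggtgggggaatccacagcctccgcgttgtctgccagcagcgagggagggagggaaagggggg
Col27a1: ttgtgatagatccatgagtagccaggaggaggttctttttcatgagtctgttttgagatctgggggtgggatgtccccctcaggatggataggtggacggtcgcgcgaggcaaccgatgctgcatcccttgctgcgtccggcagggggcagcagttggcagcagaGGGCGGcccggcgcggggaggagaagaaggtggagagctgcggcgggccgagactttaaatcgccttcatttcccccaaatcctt
TATAAA begins 117 bases before the start of Col3a1. In Col5a1, CCGCCC begins 205 and GGGCGG 73 bases before the start, and in Col27a1 GGGCGG begins 85 bases before it. RefSeq promoters were matched for 35 of the 44 chains, in 38 windows of this length, and not for Col1a1, Col2a1, Col4a3, Col5a2, Col9a3, Col12a1, Col14a1, Col22a1 and Col26a1. On either strand, GGGCGG stood in 22 of the 38 windows (57.9%) and in 32.7% of all 32851 promoter windows. CCAAT or ATTGG stood in 13 of 38 (34.2%), against 33.8% of all windows, and TATAAA or TTTATA in 5 of 38 (13.2%), against 12.4%. These are matches of letters and not measured binding sites. Both a chain that was lower and a chain that was higher hold the GC box.

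Col1a1, Col1a2, Col3a1 and Col5a1, fibrillar chains of the interstitium and of scars, were higher in UIR kidneys at days 3 and 21 and were not called at day 1. Col1a1, the alpha 1 chain of type I collagen, had 1.58, 1.29 and 5.37 FPKM in UIR kidneys at day 1, against 5.85, 8.36 and 3.53 FPKM in sham kidneys. At day 3 Col1a1 had 132, 82.1 and 35.1 FPKM in UIR kidneys, against 5.98, 6.79 and 3.52 FPKM in sham kidneys. At day 21 Col1a1 had 273, 302.5 and 316 FPKM in UIR kidneys, against 4.34, 6.26 and 5.82 FPKM in sham kidneys. Replicate 3 of UIR at day 1 lay within the sham range, whereas the groups did not overlap at days 3 and 21. The log2 fold of Col1a1 was -0.98 ± 0.42 (SE) at day 1 with a limma adjusted p of 0.057, 3.56 ± 0.42 at day 3 (limma adjusted p = 1.3e-06) and 5.53 ± 0.42 at day 21 (limma adjusted p = 5.2e-09). Without replicate 3 of UIR at day 1, Col1a1 at day 1 was called lower, at -1.45 (limma adjusted p = 0.0067). The fit pools the spread of all 6 groups, so day 3 libraries bear on this call too. Without replicate 3 of UIR at day 3, the day 1 fold of Col1a1 stayed at -0.98 and was called (limma adjusted p = 0.023). Over all 26 alternatives its day 1 fold ran from -1.45 to -0.51 and the limma adjusted p from 0.0067 to 0.21. On the linear scale the mean of Col1a1 at day 21 was 54.3 times that of sham kidneys.

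Col1a2, the alpha 2 chain that joins alpha 1 in type I collagen, had 3.11, 3.69 and 6.26 FPKM in UIR kidneys at day 1, against 7.12, 8.5 and 5.34 FPKM in sham kidneys. At day 3 Col1a2 had 85.3, 53.9 and 26.5 FPKM in UIR kidneys, against 7.05, 9.42 and 4.70 FPKM in sham kidneys. At day 21 Col1a2 had 254, 272 and 283 FPKM in UIR kidneys, against 7.28, 10.3 and 7.60 FPKM in sham kidneys. The groups overlapped at day 1 only, and the log2 folds were -0.60, 2.70 and 4.86 at days 1, 3 and 21, of which limma called the last pair. The day 1 fold was called lower without replicate 3 of UIR at day 3 (-0.60, limma adjusted p = 0.047). Type I collagen is made of alpha 1 and alpha 2 chains in unequal numbers, so their ratio of FPKM was computed per library. Col1a1 to Col1a2 averaged 0.572 ± 0.26 in UIR kidneys at day 1 and 0.822 ± 0.161 in sham kidneys (SD, n = 3 each). It averaged 1.47 ± 0.121 in UIR kidneys at day 3 and 0.773 ± 0.0669 in sham kidneys, and at day 21 1.10 ± 0.0221 in UIR kidneys and 0.656 ± 0.0952 in sham kidneys. The ratio overlapped between the groups at day 1 and was above sham in the 3 UIR libraries of days 3 and 21.

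Col3a1, the chain of type III collagen, which forms thin fibres together with type I, had 2.42, 5.07 and 7.05 FPKM in UIR kidneys at day 1, against 2.2, 2.73 and 1.59 FPKM in sham kidneys. At day 3 Col3a1 had 74.0, 48.6 and 16.5 FPKM in UIR kidneys, against 3.95, 6.05 and 2.42 FPKM in sham kidneys. At day 21 Col3a1 had 224, 239 and 251 FPKM in UIR kidneys, against 4.02, 6.00 and 4.57 FPKM in sham kidneys. Replicate 1 of UIR lay within the sham range at day 1 and no library did at days 3 and 21. Its log2 fold was 0.81 ± 0.41 (SE) at day 1 (limma adjusted p = 0.1), 3.03 ± 0.41 at day 3 (limma adjusted p = 6.1e-06) and 5.36 ± 0.41 at day 21 (limma adjusted p = 5.7e-09). Without replicate 1 of UIR at day 1, the day 1 value of Col3a1 was 1.16 and was called (limma adjusted p = 0.034). Without replicate 3 of UIR at day 3, Col3a1 stayed at 0.81 at day 1, with an SE of 0.29, and was called (limma adjusted p = 0.025). Over its 26 alternatives that limma adjusted p ran from 0.025 to 0.92. The ratio of Col3a1 to Col1a1 averaged 2.26 ± 1.45 in UIR kidneys at day 1 and 0.384 ± 0.0623 in sham kidneys, with no overlap. At day 3 it averaged 0.541 ± 0.0635 in UIR kidneys and 0.746 ± 0.126 in sham kidneys, with each UIR library below sham. At day 21 it averaged 0.802 ± 0.0164 in UIR kidneys and 0.890 ± 0.0921 in sham kidneys, with overlap.

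The type V chains regulate the start and the width of type I fibrils. Col5a1 had 0.470, 0.730 and 0.920 FPKM in UIR kidneys at day 1, against 0.790, 1.60 and 0.640 FPKM in sham kidneys. At day 3 Col5a1 had 9.21, 6.84 and 2.85 FPKM in UIR kidneys, against 1.00, 1.29 and 0.600 FPKM in sham kidneys. At day 21 Col5a1 had 21.0, 24.4 and 21.8 FPKM in UIR kidneys, against 0.930, 1.07 and 0.980 FPKM in sham kidneys. The groups overlapped at day 1 only, with log2 folds of -0.21, 1.80 and 3.55 at days 1, 3 and 21. Col5a2, which lies beside Col3a1 in the genome, pairs with Col5a1 in type V collagen. Col5a2 had 3.64, 4.84 and 5.26 FPKM in UIR kidneys at day 1, against 4.09, 3.68 and 3.44 FPKM in sham kidneys. At day 3 Col5a2 had 8.37, 7.53 and 4.18 FPKM in UIR kidneys, against 5.78, 4.17 and 5.62 FPKM in sham kidneys. At day 21 Col5a2 had 17.3, 18.04 and 17.3 FPKM in UIR kidneys, against 4.61, 3.57 and 4.41 FPKM in sham kidneys. Only day 21 separated the groups without overlap, and Col5a2 was called at day 21 alone (log2 fold 1.84), with 0.23 at day 1 and 0.28 at day 3 (limma adjusted p = 0.17). Without replicate 3 of UIR at day 3, Col5a2 was called at that day too, at 0.54 (limma adjusted p = 0.0033), and over 25 alternatives that p ran from 0.0033 to 0.6. The ratio of Col5a1 to Col5a2 averaged 0.152, 0.897 and 1.27 in UIR kidneys at days 1, 3 and 21, against 0.271, 0.196 and 0.241 in sham kidneys. Col5a3, the third type V chain, was called higher at day 3 (0.72) and day 21 (1.45), where it averaged 3.26 ± 0.524 FPKM in UIR kidneys and 0.553 ± 0.0757 FPKM in sham kidneys (SD, n = 3 each). It passed the filter only through the UIR libraries of days 3 and 21, so these calls are not independent of the filter.

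Col27a1, a fibrillar chain known from cartilage, was lower in UIR kidneys on all 3 days. It had 8.74, 7.57 and 6.66 FPKM in UIR kidneys at day 1, against 47.2, 52.8 and 63.5 FPKM in sham kidneys. At day 3 Col27a1 had 6.94, 6.17 and 7.16 FPKM in UIR kidneys, against 17.98, 15.2 and 14.1 FPKM in sham kidneys. At day 21 Col27a1 had 6.50, 7.29 and 6.86 FPKM in UIR kidneys, against 13.1, 10.3 and 12.4 FPKM in sham kidneys. The groups never overlapped, and the UIR level stayed between 6.17 and 8.74 FPKM while the sham level differed by day. The log2 fold of Col27a1 was -2.68 ± 0.12 (SE) at day 1 (limma adjusted p = 2.6e-10), -1.11 ± 0.12 at day 3 (limma adjusted p = 6.8e-07) and -0.71 ± 0.12 at day 21 (limma adjusted p = 6.6e-05). Against the sham kidneys of days 3 and 21, the day 1 value of Col27a1 was -0.77 (limma adjusted p = 8.7e-06).

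Of the fibrillar chains under the filter, Col24a1 reached the highest group mean. It had 1.04, 0.840 and 0.580 FPKM in UIR kidneys at day 3, against 0.200, 0.0700 and 0.190 FPKM in sham kidneys, without overlap. Col2a1, Col11a1 and Col11a2, chains of cartilage fibrils, had means of at most 0.61 FPKM in any group. The 5 cartilage markers Acan, Comp, Matn1, Chad and Cnmd were likewise too low to test, and summed to 0.83 to 1.39 FPKM in UIR kidneys at day 21 and 0.20 to 0.47 FPKM in sham kidneys.

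**Figure D3:**
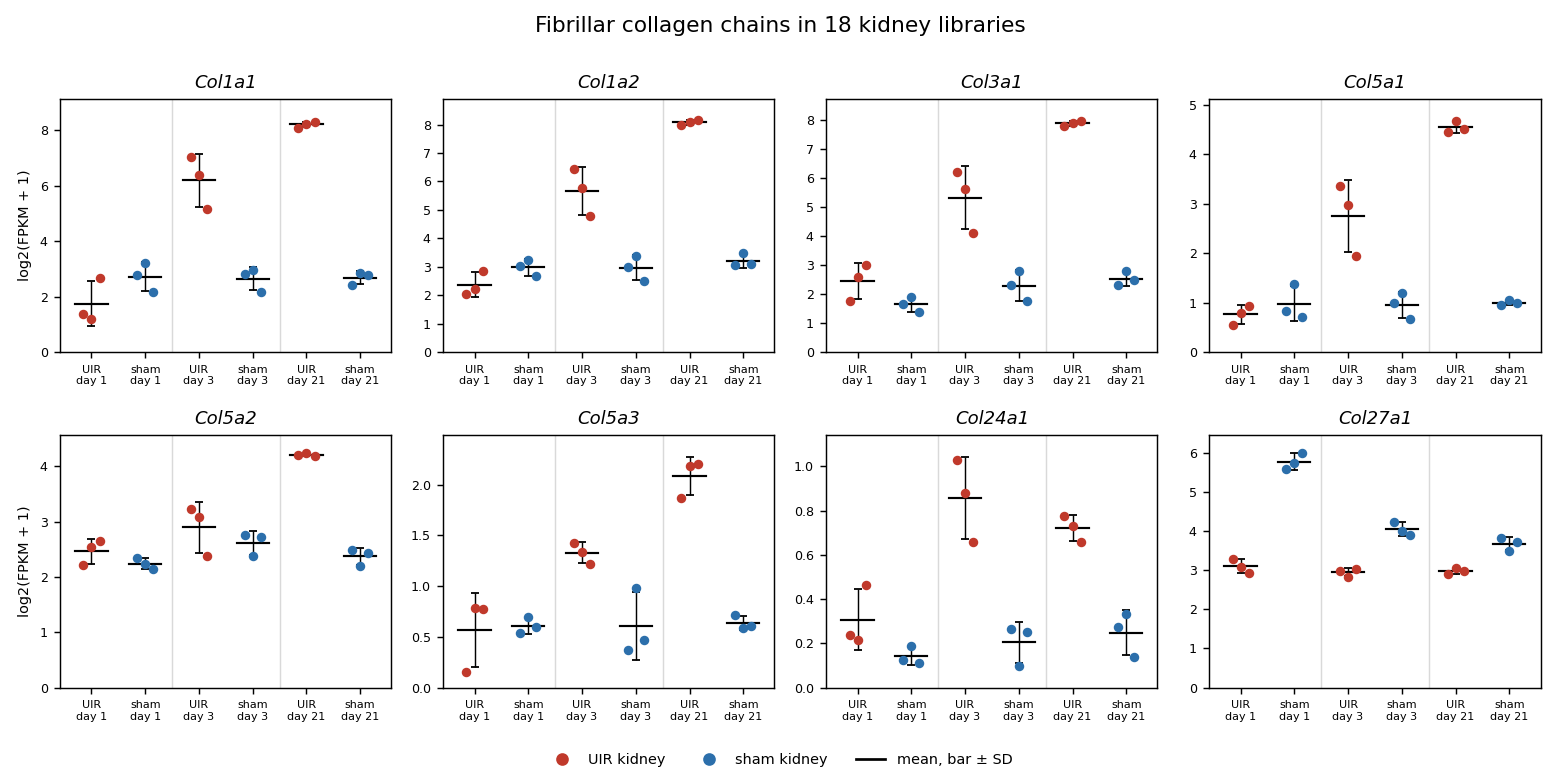
log2(FPKM + 1) of 8 fibrillar chains in each of the 18 libraries, with the UIR kidneys of each day (red) left of the sham kidneys of the same day (blue), and the mean ± SD over 3 libraries in black. Col1a1, Col1a2, Col3a1 and Col5a1 of UIR kidneys lie above sham at days 3 and 21 with a wide spread at day 3, and Col27a1 of UIR kidneys lies below sham throughout.

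Basement membrane chains split in direction. Col4a1, Col4a2, Col4a5, Col4a6, Col15a1 and Col18a1 were higher in UIR kidneys at days 3 and 21, and Col4a3 and Col4a4 were lower on all 3 days. Col4a1, one of the chains of the widespread type IV network, had 89.4, 89.8 and 96.9 FPKM in UIR kidneys at day 1, against 63.3, 58.1 and 50.7 FPKM in sham kidneys. At day 3 Col4a1 had 195, 186 and 156 FPKM in UIR kidneys, against 34.6, 37.8 and 26.2 FPKM in sham kidneys. At day 21 Col4a1 had 182, 229 and 181 FPKM in UIR kidneys, against 37.7, 44.2 and 38.3 FPKM in sham kidneys. UIR lay above sham in each library on all 3 days. The log2 fold of Col4a1 was 0.68 ± 0.13 (SE) at day 1 (limma adjusted p = 0.00043), 2.42 ± 0.13 at day 3 (limma adjusted p = 2.3e-10) and 2.27 ± 0.13 at day 21 (limma adjusted p = 2.95e-10).

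Col4a2, which joins Col4a1 in the same helix and starts 21 bases from it on the opposite strand, had 52.3, 51.9 and 57.6 FPKM in UIR kidneys at day 1, against 48.6, 44.1 and 41.2 FPKM in sham kidneys. At day 3 Col4a2 had 113, 107 and 82.0 FPKM in UIR kidneys, against 25.2, 27.6 and 19.5 FPKM in sham kidneys. At day 21 Col4a2 had 126, 157 and 126 FPKM in UIR kidneys, against 27.9, 32.9 and 29.5 FPKM in sham kidneys. The libraries did not overlap on any day, but the day 1 fold of 0.27 was not called (limma adjusted p = 0.1), while 2.02 at day 3 and 2.14 at day 21 were. Exons of this pair overlap in the annotation, and whether strand was used in the quantification is not given, so reads there cannot be told apart. The ratio of Col4a1 to Col4a2 averaged 1.71 ± 0.0233 in UIR kidneys at day 1 and 1.28 ± 0.0473 in sham kidneys (SD, n = 3 each). At day 3 it averaged 1.79 ± 0.0945 in UIR kidneys and 1.36 ± 0.0164 in sham kidneys, and at day 21 1.45 ± 0.0084 in UIR kidneys and 1.33 ± 0.0312 in sham kidneys. This ratio was above sham in each UIR library on all 3 days.

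Col4a3, a chain of the mature glomerular basement membrane, had 10.3, 9.38 and 11.8 FPKM in UIR kidneys at day 1, against 26.6, 29.1 and 26.0 FPKM in sham kidneys. At day 3 Col4a3 had 14.7, 14.7 and 14.6 FPKM in UIR kidneys, against 39.8, 46.8 and 48.0 FPKM in sham kidneys. At day 21 Col4a3 had 28.0, 29.5 and 25.6 FPKM in UIR kidneys, against 50.1, 44.1 and 35.6 FPKM in sham kidneys. UIR lay below sham in each library on all 3 days. Limma gave Col4a3 a log2 fold of -1.30 ± 0.11 (SE) at day 1 (limma adjusted p = 1.1e-07), -1.54 ± 0.11 at day 3 (limma adjusted p = 5.1e-09) and -0.61 ± 0.11 at day 21 (limma adjusted p = 0.00011). Col4a4, its partner on chromosome 1, had 12.5, 12.3 and 12.3 FPKM in UIR kidneys at day 1, against 25.3, 25.3 and 23.0 FPKM in sham kidneys. At day 3 Col4a4 had 14.4, 14.6 and 13.9 FPKM in UIR kidneys, against 29.9, 26.3 and 29.6 FPKM in sham kidneys. At day 21 Col4a4 had 16.9, 19.9 and 15.2 FPKM in UIR kidneys, against 35.6, 33.1 and 30.5 FPKM in sham kidneys. Again no library overlapped, and the log2 folds of -0.93, -0.95 and -0.90 at days 1, 3 and 21 were alike in size in the main fit, each called by limma. Under a median-of-ratios scaling they were not alike. There the effect of Col4a4 at day 3 minus that at day 1 was -0.56 (limma adjusted p = 0.00091). For Col4a3 this difference was -0.79 (limma adjusted p = 0.00023).

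Beside these 2 chains, the podocyte markers, which come from the cell that makes the glomerular basement membrane, were called higher for the most part at days 3 and 21. Of 8 podocyte markers, 0 were called higher and 2 lower at day 1, 6 higher and 0 lower at day 3, and 8 higher and 0 lower at day 21. Over all tested genes 28.5%, 57.6% and 60.7% were called higher and 31.1%, 17.9% and 20.1% lower at days 1, 3 and 21. The podocyte medians were -0.27, 0.70 and 1.73 beside -0.03, 0.44 and 0.53 for all tested genes. Podocyte marker FPKM summed to 330.1 to 376 in UIR kidneys at day 21 and to 104 to 128 in sham kidneys. Proximal tubule markers were called lower in 4, 8 and 8 of 8 at days 1, 3 and 21, and the part of either cell type in the chain levels was not tested. The ratio of Col4a3 to Col4a1 averaged 0.114 ± 0.00862 in UIR kidneys at day 1 and 0.478 ± 0.0498 in sham kidneys (SD, n = 3 each). At day 3 it averaged 0.0828 ± 0.00969 in UIR kidneys and 1.41 ± 0.373 in sham kidneys, and at day 21 0.141 ± 0.0124 in UIR kidneys and 1.08 ± 0.214 in sham kidneys. No library of either group overlapped in this ratio.

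Col4a5, the X-linked chain that can join Col4a3 and Col4a4, as in the glomerulus, or Col4a6, had 1.83, 2.09 and 3.83 FPKM in UIR kidneys at day 1, against 4.15, 5.41 and 4.21 FPKM in sham kidneys. At day 3 Col4a5 had 12.9, 14.8 and 14.5 FPKM in UIR kidneys, against 5.74, 4.84 and 5.13 FPKM in sham kidneys. At day 21 Col4a5 had 14.0, 15.5 and 14.4 FPKM in UIR kidneys, against 6.49, 5.94 and 5.64 FPKM in sham kidneys. It was below sham in each library at day 1 and above it at days 3 and 21, with log2 folds of -0.68, 1.27 and 1.16, all called. Col4a6, its neighbour on chromosome X, had 0.170, 0.240 and 0.400 FPKM in UIR kidneys at day 1, against 0.150, 0.340 and 0.290 FPKM in sham kidneys. At day 3 Col4a6 had 3.25, 3.48 and 3.58 FPKM in UIR kidneys, against 0.190, 0.350 and 0.180 FPKM in sham kidneys. At day 21 Col4a6 had 2.84, 3.5 and 2.86 FPKM in UIR kidneys, against 0.300, 0.190 and 0.130 FPKM in sham kidneys. The groups overlapped at day 1 (log2 fold 0.01) and were apart at days 3 and 21 (1.84 and 1.75, both called). Col4a6 passed the filter only through the UIR libraries of days 3 and 21, so these calls are not independent of the filter.

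Col15a1 and Col18a1 encode the basement membrane zone collagens that carry glycosaminoglycan chains and release restin and endostatin. Col15a1 had 1.67, 2.49 and 4.15 FPKM in UIR kidneys at day 1, against 2.09, 2.2 and 1.36 FPKM in sham kidneys. At day 3 Col15a1 had 35.0, 25.1 and 12.6 FPKM in UIR kidneys, against 4.24, 5.05 and 2.94 FPKM in sham kidneys. At day 21 Col15a1 had 82.2, 99.1 and 93.3 FPKM in UIR kidneys, against 4.17, 6.90 and 4.61 FPKM in sham kidneys. After overlap at day 1 (log2 fold 0.35, not called) it was above sham in each UIR library, by 2.22 ± 0.30 (SE) at day 3 (limma adjusted p = 5.4e-06) and 3.91 ± 0.30 at day 21 (limma adjusted p = 5.4e-09). Col18a1 had 94.9, 107 and 162 FPKM in UIR kidneys at day 1, against 52.6, 58.6 and 51.2 FPKM in sham kidneys. At day 3 Col18a1 had 204, 186 and 172 FPKM in UIR kidneys, against 38.0, 37.4 and 28.3 FPKM in sham kidneys. At day 21 Col18a1 had 181, 218 and 181 FPKM in UIR kidneys, against 32.1, 33.5 and 34.3 FPKM in sham kidneys. It was above sham in each UIR library on all 3 days, and its day 1 log2 fold of 1.11 ± 0.16 (SE, limma adjusted p = 2.0e-05) was the largest upward fold of the chains tested at that day. Its folds at days 3 and 21 were 2.41 and 2.50.

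**Figure D4:**
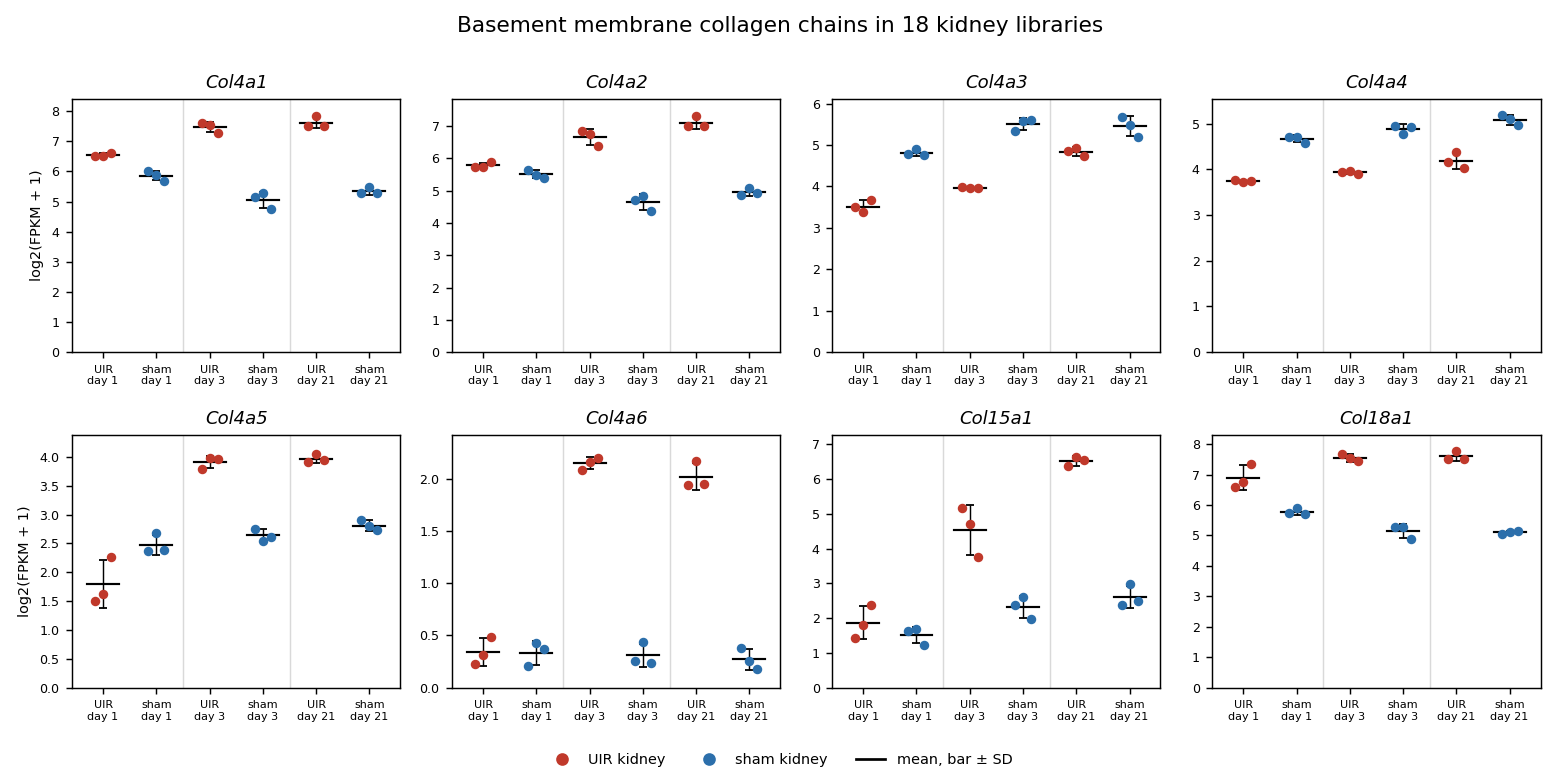
log2(FPKM + 1) of the 8 basement membrane chains in each of the 18 libraries, with the UIR kidneys of each day (red) left of the sham kidneys of the same day (blue), and the mean ± SD over 3 libraries in black. Col4a3 and Col4a4 of UIR kidneys lie below sham on all 3 days, Col4a5 below at day 1 and above later, and Col4a1, Col4a2 and Col18a1 above throughout.

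Type VI collagen forms beaded filaments around cells from Col6a1, Col6a2 and Col6a3. Col6a1 had 1.64, 1.55 and 2.30 FPKM in UIR kidneys at day 1, against 2.09, 3.95 and 1.78 FPKM in sham kidneys. At day 3 Col6a1 had 35.6, 20.4 and 11.0 FPKM in UIR kidneys, against 3.40, 6.50 and 2.26 FPKM in sham kidneys. At day 21 Col6a1 had 104.03, 104.6 and 105 FPKM in UIR kidneys, against 3.51, 4.20 and 4.01 FPKM in sham kidneys. The UIR libraries of day 21 were close together, and the groups were apart at days 3 and 21. For Col6a1 the log2 fold was -0.31 ± 0.33 (SE) at day 1 (limma adjusted p = 0.44), 2.15 ± 0.33 at day 3 (limma adjusted p = 2.4e-05) and 4.43 ± 0.33 at day 21 (limma adjusted p = 4.4e-09). Its neighbour Col6a2 had 1.02, 1.11 and 1.23 FPKM in UIR kidneys at day 1, against 1.54, 1.89 and 0.900 FPKM in sham kidneys. At day 3 Col6a2 had 32.1, 15.8 and 8.44 FPKM in UIR kidneys, against 1.73, 3.61 and 1.65 FPKM in sham kidneys. At day 21 Col6a2 had 67.2, 70.9 and 74.8 FPKM in UIR kidneys, against 2.31, 3.01 and 1.86 FPKM in sham kidneys. The pattern was that of Col6a1, with log2 folds of -0.18, 2.43 and 4.42, of which the last pair was called.

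Col6a3, the longest of the main type VI chains, had 0.290, 0.800 and 0.790 FPKM in UIR kidneys at day 1, against 0.430, 1.17 and 0.360 FPKM in sham kidneys. At day 3 Col6a3 had 11.8, 7.65 and 2.95 FPKM in UIR kidneys, against 1.37, 2.19 and 0.950 FPKM in sham kidneys. At day 21 Col6a3 had 22.6, 22.4 and 20.7 FPKM in UIR kidneys, against 1.34, 1.84 and 1.74 FPKM in sham kidneys. Overlap was seen at day 1 only, with log2 folds of -0.01, 1.63 and 3.12. Col6a5 was called at day 21 alone (1.26), where it averaged 1.51 ± 0.38 FPKM in UIR kidneys and 0.04 ± 0.0265 FPKM in sham kidneys (SD, n = 3 each). It passed the filter only through the UIR libraries of day 21, so this call is not independent of the filter. Col6a4 averaged at most 0.317 FPKM in any group. Col6a6, under the filter, averaged 0.0233 FPKM in UIR kidneys at day 3 and 0.66 FPKM in sham kidneys without overlap, but 0.76 and 0.793 FPKM in UIR and sham kidneys at day 21, where the libraries overlapped.

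Fibril-associated collagens sit on the surface of other fibrils. Col12a1 had 1.09, 1.22 and 1.03 FPKM in UIR kidneys at day 1, against 1.17, 1.24 and 1.11 FPKM in sham kidneys. At day 3 Col12a1 had 3.82, 3.35 and 2.12 FPKM in UIR kidneys, against 0.540, 0.640 and 0.500 FPKM in sham kidneys. At day 21 Col12a1 had 9.38, 12.8 and 8.88 FPKM in UIR kidneys, against 0.520, 0.860 and 0.480 FPKM in sham kidneys. The groups were apart at days 3 and 21, with log2 folds of 1.37 and 2.80, both called, after -0.04 at day 1. Col14a1 had 2.31, 3.44 and 1.49 FPKM in UIR kidneys at day 1, against 2.96, 3.56 and 2.03 FPKM in sham kidneys. At day 3 Col14a1 had 13.4, 8.77 and 3.21 FPKM in UIR kidneys, against 5.20, 5.98 and 3.18 FPKM in sham kidneys. At day 21 Col14a1 had 34.0, 30.7 and 26.6 FPKM in UIR kidneys, against 5.19, 8.56 and 5.35 FPKM in sham kidneys. Replicate 3 of UIR at day 3 lay within the sham range, and Col14a1 was called at day 21 (2.12) but not at day 3 (0.57, limma adjusted p = 0.15). Without that library it was called at day 3, at 1.07 (limma adjusted p = 0.003), and over 25 alternatives that p ran from 0.003 to 0.77.

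Col16a1, which joins fibrils and cell contacts, had 0.610, 0.740 and 0.660 FPKM in UIR kidneys at day 1, against 0.960, 1.69 and 1.37 FPKM in sham kidneys. At day 3 Col16a1 had 5.88, 5.02 and 3.37 FPKM in UIR kidneys, against 2.52, 2.52 and 2.02 FPKM in sham kidneys. At day 21 Col16a1 had 14.7, 15.7 and 16.6 FPKM in UIR kidneys, against 2.2, 2.01 and 2.37 FPKM in sham kidneys. It was below sham in each library at day 1 and above it later, with log2 folds of -0.48, 0.76 and 2.38, all called. The day 1 call of Col16a1 was lost without replicate 2 of the day 1 sham (-0.37, limma adjusted p = 0.056). Col20a1, which is little studied in the kidney, had 1.17, 1.32 and 1.31 FPKM in UIR kidneys at day 1, against 0.710, 1.00 and 0.820 FPKM in sham kidneys. At day 3 Col20a1 had 0.520, 0.510 and 0.430 FPKM in UIR kidneys, against 0.450, 0.380 and 0.520 FPKM in sham kidneys. At day 21 Col20a1 had 1.92, 2.31 and 2.43 FPKM in UIR kidneys, against 0.450, 0.600 and 0.420 FPKM in sham kidneys. It was called higher at day 1 (0.30) and day 21 (1.11), with overlap and 0.04 at day 3 between them. Apart from 1 sham library of day 1, Col20a1 reached 1 FPKM only in the UIR libraries of days 1 and 21. Its calls are thus not independent of the filter. Col19a1, under the filter, stood below sham in each library on all 3 days, and averaged 0.0567 FPKM in UIR kidneys at day 21 and 0.673 FPKM in sham kidneys. At day 1 its values were near 0, with 0.01 FPKM in each UIR library against 0.09, 0.07 and 0.03 FPKM in sham kidneys. In the fit without a filter it was not called at day 1 (-0.07, limma adjusted p = 0.77), and was called lower at days 3 (-0.83) and 21 (-0.64).

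The short-chain network collagen Col8a1, of vessel walls and sheets under endothelium, had 2.48, 2.99 and 1.61 FPKM in UIR kidneys at day 1, against 4.40, 3.02 and 4.76 FPKM in sham kidneys. At day 3 Col8a1 had 4.25, 4.25 and 2.71 FPKM in UIR kidneys, against 0.430, 0.700 and 0.610 FPKM in sham kidneys. At day 21 Col8a1 had 8.71, 8.78 and 6.03 FPKM in UIR kidneys, against 0.920, 1.07 and 0.800 FPKM in sham kidneys. UIR was below sham at day 1 by a narrow gap and above it later, with log2 folds of -0.60, 1.57 and 2.18, all called. The day 1 call was lost without replicate 3 of UIR at day 1 (-0.42, limma adjusted p = 0.066) and without replicate 3 of the day 1 sham (-0.49, limma adjusted p = 0.056). Its partner Col8a2 was called at day 21 (1.47) and not at day 3 (0.21, limma adjusted p = 0.053). At day 3 it was called with a pseudocount of 0.1 (1.08), without a filter, with TPM and without replicate 3 of UIR (0.31), and over 21 alternatives the limma adjusted p ran from 0.0068 to 0.22. At day 21 Col8a2 averaged 1.96 ± 0.228 FPKM in UIR kidneys and 0.0667 ± 0.0306 FPKM in sham kidneys (SD, n = 3 each). Only the UIR libraries of day 21 brought Col8a2 past the filter, so its day 21 call is not independent of the filter.

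Among transmembrane collagens, Col17a1, the hemidesmosome collagen of stratified epithelia, had 0.0800, 0.340 and 0.110 FPKM in UIR kidneys at day 1, against 0.00, 0.0100 and 0.0200 FPKM in sham kidneys. At day 3 Col17a1 had 1.39, 1.36 and 1.42 FPKM in UIR kidneys, against 0.00, 0.00 and 0.0100 FPKM in sham kidneys. At day 21 Col17a1 had 0.800, 0.840 and 0.950 FPKM in UIR kidneys, against 0.0200, 0.0100 and 0.0300 FPKM in sham kidneys. It was above sham in each UIR library on all 3 days, with log2 folds of 0.21, 1.25 and 0.87, all called. Only the UIR libraries of day 3 brought Col17a1 past the filter, so its day 3 call is not independent of the filter. The day 1 call (limma adjusted p = 0.042) was lost in 12 of the fits that leave out 1 library, and the fold was 0.12 without replicate 2 of UIR at day 1 (limma adjusted p = 0.23). Col23a1 was called at day 21 alone (1.17), and only the UIR libraries of day 21 brought it past the filter, so this call is not independent of the filter. Col13a1, a collagen of cell contacts and the neuromuscular junction, was called at day 21 (0.67), where it averaged 1.32 ± 0.0208 FPKM in UIR kidneys and 0.463 ± 0.146 FPKM in sham kidneys (SD, n = 3 each). Col26a1 was called lower at day 1 (-0.25, limma adjusted p = 0.045) and higher at days 3 (0.40) and 21 (0.31). The day 1 call of Col26a1 was lost in 12 of the fits that leave out 1 library, among them those without any 1 of the 6 libraries of that day. It was also lost with a pseudocount of 5 (limma adjusted p = 0.12) and with median-of-ratios scaling (limma adjusted p = 0.064). The day 21 call of Col26a1 was lost without replicate 1 of sham at day 21 (0.25, limma adjusted p = 0.052). The calls of Col26a1 at days 3 and 21 ended under a median-of-ratios scaling, with 0.04 and -0.07, and that of Col13a1 at day 21 too, with 0.39.

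**Figure D5:**
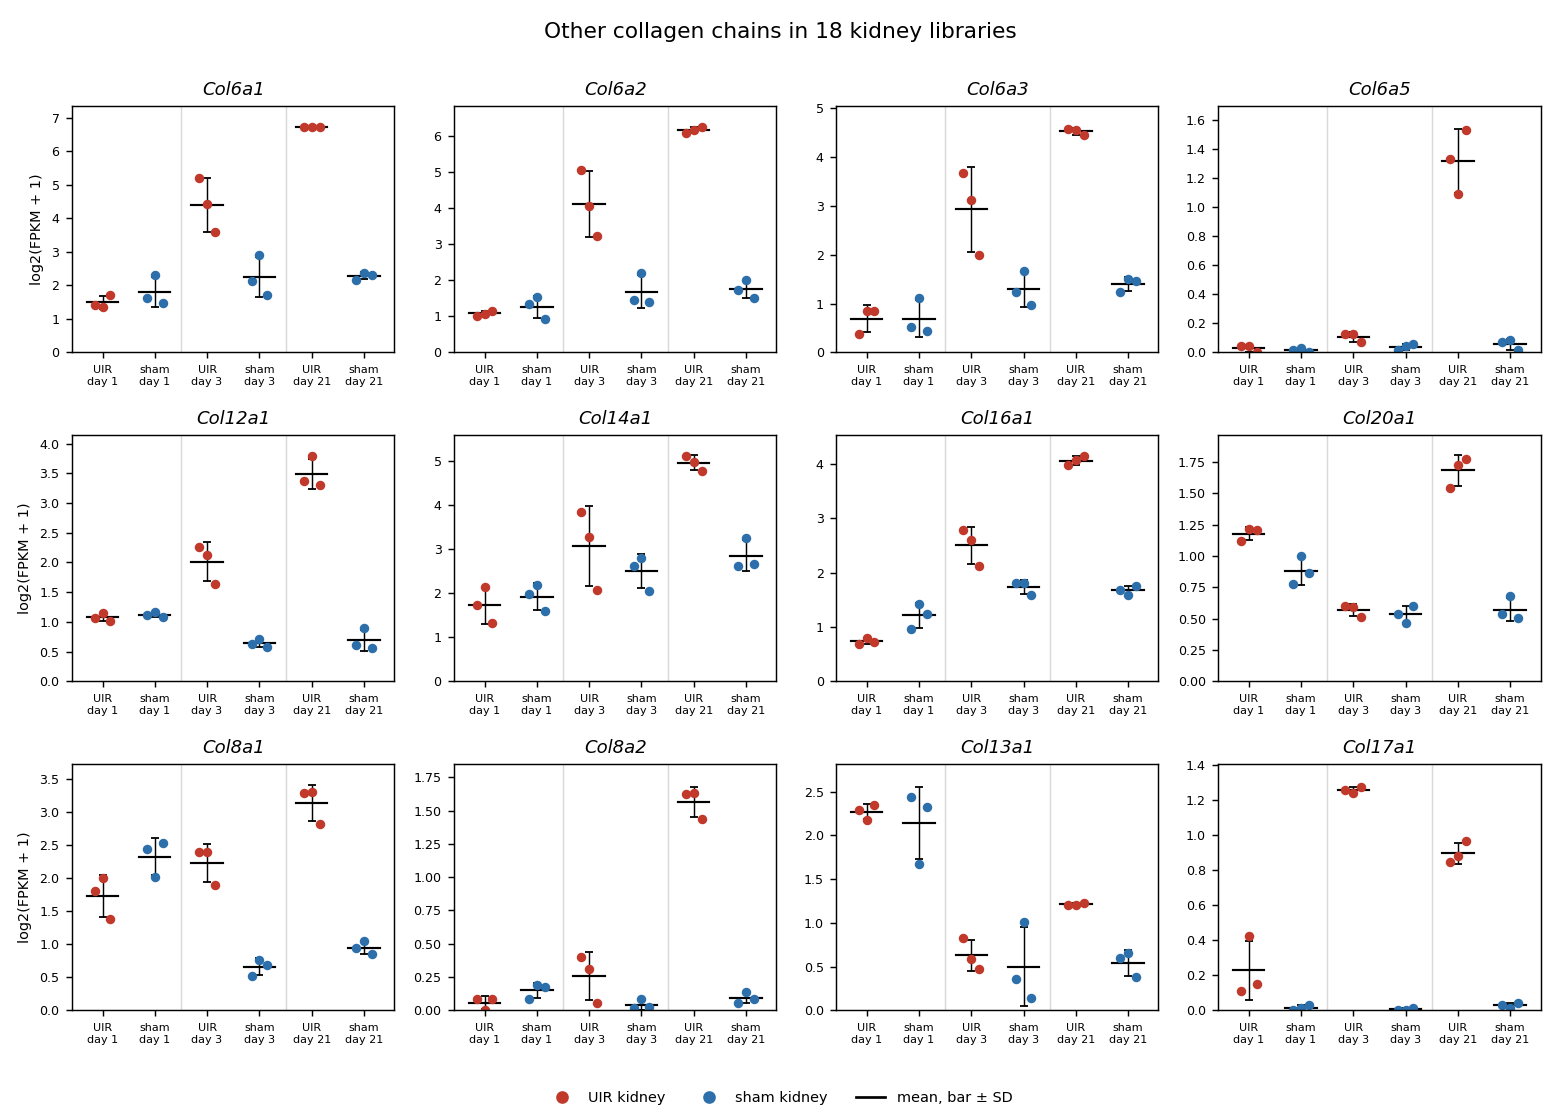
log2(FPKM + 1) of 12 other chains in each of the 18 libraries, with the UIR kidneys of each day (red) left of the sham kidneys of the same day (blue), and the mean ± SD over 3 libraries in black. Col6a1, Col6a2 and Col6a3 of UIR kidneys lie above sham at days 3 and 21, Col17a1 of UIR kidneys is highest at day 3, and Col8a2 of UIR kidneys overlaps sham at days 1 and 3 and lies above it at day 21.

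The remaining chains, 15 under the filter, were counted in a fit without it. There, 38 of the 44 chains were called higher and 4 lower at day 21, with 52% and 14.9% of all 20825 genes. Col6a6 and Col9a1 were not called there, and Col9a1 was at 0 in each library of that day. At day 3, 24 were called higher and 5 lower, with 44.8% and 13.3%, and at day 1 4 and 7, with 21.9% and 23% of all genes. The chains under the filter averaged at most 0.837 FPKM in any group (Col7a1, the anchoring fibril collagen, in UIR kidneys at day 21), except for Col19a1, which averaged 0.85 FPKM in sham kidneys at day 3. Exons of Col10a1, Col9a3 and Col7a1 overlap those of Nt5dc1, Tcfl5 and Mir711, so that their low values are uncertain.

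The change of the UIR effect between days was tested as a difference of folds. From day 1 to day 3, 20 of 29 chains were called with a higher effect and 0 with a lower one, with 50.1% and 12.7% of all tested genes. The median difference was 1.41, beside 0.44 over all tested genes. The largest were Col1a1 (4.54 ± 0.60 SE, limma adjusted p = 1.0e-05), Col1a2 (3.30 ± 0.46, limma adjusted p = 1.8e-05) and Col6a2 (2.62 ± 0.46, limma adjusted p = 0.00014). At an unadjusted limma p under 0.05 the counts were 21 higher and 0 lower. Of the 22 chains at 1 FPKM in at least 3 sham libraries, 17 were called higher and 0 lower. Col5a3, Col4a6 and Col17a1, also called, passed the filter only through UIR libraries. A higher effect need not be a rise in UIR kidneys. Col27a1 (1.57) averaged 7.66 and 6.76 FPKM there at days 1 and 3, and 54.5 and 15.75 FPKM in sham kidneys. Col8a1 (2.16) averaged 2.36 and 3.74 FPKM in UIR kidneys, and 4.06 and 0.58 FPKM in sham kidneys.

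From day 3 to day 21, 18 of 29 chains were called with a higher effect and 1 with a lower one, with 26.1% and 20.2% of all tested genes. The median difference was 1.14, beside 0.06 over all tested genes. By class the calls were 6 higher and 0 lower of 7 fibrillar chains, 2 and 0 of 8 basement membrane chains, and 10 and 1 of 14 other chains. Of the other chains 5 had passed the filter only through UIR libraries, which favours a call here. So had Col4a6 and the fibrillar chain Col5a3 (0.73, limma adjusted p = 0.023). The call of Col5a3 was lost in 4 of the fits that leave out 1 library. It was also lost with a pseudocount of 0.1, with TPM and with median-of-ratios scaling. Among the 22 chains that reached 1 FPKM in at least 3 sham libraries, 13 were called higher and 0 lower, and at an unadjusted limma p under 0.05 15 and 0. Col3a1 (2.33), Col6a1 (2.28) and Col1a2 (2.16) had the largest differences, each called by limma. The 2 basement membrane chains were Col15a1 (1.69) and Col4a3 (0.93). Col4a3 was lower in UIR kidneys on both days, by less at day 21 (-0.61) than at day 3 (-1.54). Col4a1 (-0.15 ± 0.19 SE, limma adjusted p = 0.54), Col4a2 (0.12), Col4a5 (-0.12), Col4a6 (-0.09) and Col18a1 (0.09) were not called. The chain with a lower effect was Col17a1 (-0.38 ± 0.12, limma adjusted p = 0.017), which passed the filter only through the UIR libraries of day 3, so that this comparison is not independent of how it came to be tested.

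The UIR libraries of day 3 differed among themselves in one order for most chains. Replicate 1 was the highest of the 3 for 24 of 29 chains and replicate 3 the lowest for 25. Fibrillar sums were 319, 208 and 94.5 FPKM in these 3 libraries, and basement membrane sums 592, 552 and 468 FPKM. Leukocyte and macrophage markers summed to 722, 523 and 284 FPKM in the same libraries and endothelial markers to 166, 135 and 105 FPKM, in the same order. Of 10 fibroblast, pericyte and myofibroblast markers, 8 were in that order too. Their sum of 869, 852 and 895 FPKM was not, since Vim, which many cell types express, made up 602, 627 and 765 FPKM of it. Without Vim, left out after its values were seen, the sums were 266, 225 and 130 FPKM. Markers of the thick ascending limb and distal tubule (909, 853 and 691 FPKM) and of smooth muscle (115, 105 and 94.8 FPKM) also fell from replicate 1 to replicate 3. Podocyte markers rose (144, 152 and 154 FPKM). Those of the proximal tubule (824, 829 and 705 FPKM) and the collecting duct (105, 134 and 117 FPKM) did neither. The part of these cells in the chain levels was not tested. At day 3, 21 chains were called higher and 3 lower without replicate 3, and 18 and 3 without replicate 1. In the fit with every library, 57.6% of all tested genes were called higher at day 3 and 17.9% lower. With any 1 library left out, 8016 to 8575 genes were called higher at that day and 2459 to 2698 lower. The log2 fold of Col1a1 at day 3 was 4.07 without replicate 3 and 3.13 without replicate 1.

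The sham kidneys themselves differed by day. In the sham kidneys of days 3 and 21 against those of day 1, 5 chains were called higher and 8 lower, with 14.1% and 31.9% of all tested genes, and a median of 0.03 beside -0.11. Col27a1 fell by 1.91, Col13a1 by 1.62 and Col8a1 by 1.52 on the log2 scale, followed by Col4a2 (-0.71), Col18a1 (-0.66) and Col4a1 (-0.65). Col15a1 (0.95), Col4a3 (0.67) and Col16a1 (0.49) rose. This comparison shares its day 1 sham libraries with the UIR comparison of day 1. Adipose markers summed to at most 0.30 FPKM in the sham kidneys of days 3 and 21, against 5.94 to 9.76 FPKM in those of day 1, and to 1.23 to 2.42 FPKM in UIR kidneys of day 1, and their part in these differences was not tested. Set against the sham kidneys of days 3 and 21, the UIR kidneys of day 1 had 8 chains called higher and 13 lower, with 39.6% and 32% of all tested genes. In this comparison Col8a1 was called higher (0.93), where it had been lower against day 1 sham. Col12a1 was called higher (0.41) and Col15a1 lower (-0.61), and neither was called against day 1 sham. Col13a1 (1.75) and Col4a2 (0.98) were called higher and had not been called against day 1 sham (0.13 and 0.27). Col4a1 (1.33) and Col18a1 (1.78) were higher and Col4a3 (-1.97) lower, as against day 1 sham. Col1a1 (-0.92) and Col1a2 (-0.72) were called lower in this setting, and Col3a1 was at 0.04.

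The machinery that makes and handles collagen was described from 5 lists of genes. Of 18 genes for modification and folding of procollagen, 17 were tested, and 4, 11 and 11 were called higher and 9, 1 and 1 lower at days 1, 3 and 21. Their median log2 folds were -0.40, 0.45 and 0.81, beside -0.03, 0.44 and 0.53 for all tested genes. With 28.5%, 57.6% and 60.7% of all tested genes called higher on these days, the 11 of 17 called higher at days 3 and 21 lie near the share of all genes. The shares called lower over all tested genes were 31.1%, 17.9% and 20.1%, and the 9 of 17 at day 1 lie above the first of these. P3h4 (-0.95), P3h2 (-0.91), Plod1 (-0.91) and Colgalt1 (-0.83) had the largest downward folds of the list at day 1. Among the genes called higher, Serpinh1, the collagen chaperone HSP47, had folds of 0.74, 2.15 and 2.51 at days 1, 3 and 21, all called. It averaged 208 ± 13.8 FPKM in UIR kidneys at day 21 and 36.2 ± 7.67 FPKM in sham kidneys (SD, n = 3 each). Fkbp10, a prolyl isomerase, had 0.55, 1.80 and 3.33, all called. P4hb, the shared subunit of prolyl 4-hydroxylase and a general disulfide isomerase, was the lower gene at day 3 (-0.45) and day 21 (-0.55).

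Over all tested genes 28.5%, 57.6% and 60.7% were called higher and 31.1%, 17.9% and 20.1% lower at days 1, 3 and 21. The medians of all tested genes were -0.03, 0.44 and 0.53. Of 15 genes for processing and cross-linking, 12 were tested, with 4, 11 and 12 higher and 2, 0 and 0 lower at days 1, 3 and 21, and medians of 0.28, 1.60 and 2.50. Lox, the lysyl oxidase that cross-links fibrils, averaged 24.7 ± 2.69 FPKM in UIR kidneys at day 21 and 0.457 ± 0.129 FPKM in sham kidneys (SD, n = 3 each), a log2 fold of 4.14. Bmp1, the procollagen C-proteinase (3.43), Adamts2, the procollagen N-proteinase (3.22), and Loxl2 (3.20) followed at day 21. Pxdn, the peroxidase that forms the sulfilimine cross-link of type IV collagen, had the largest fold of the list at day 3 (2.84). Of 11 proteins of fibril assembly, 10 were tested, with 1, 8 and 10 higher and 3, 0 and 0 lower, and medians of -0.19, 1.57 and 3.61. At day 21 Fbln1 (5.01), Fn1 (4.50), Dcn (4.18) and Sparc (3.78) led this list.

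Of 14 genes for degradation of collagen and its inhibition, 12 were tested, with 5, 7 and 10 higher and 3, 1 and 1 lower at days 1, 3 and 21, and medians of 0.37, 1.47 and 3.78. The shares of all tested genes were 28.5%, 57.6% and 60.7% higher and 31.1%, 17.9% and 20.1% lower, with medians of -0.03, 0.44 and 0.53. The 7 of 12 called higher at day 3 lie near the share of all genes. Timp1, an inhibitor of metalloproteinases, was higher on all 3 days (3.12, 4.44 and 5.50) and averaged 43.1 ± 18.4 FPKM in UIR kidneys at day 1 and 3.90 ± 1.37 FPKM in sham kidneys (SD, n = 3 each). The gelatinase Mmp2 had a fold of 5.06 at day 21, Mmp7 4.81 and the membrane-bound collagenase Mmp14 4.58. Timp3 was the gene called lower throughout, by -1.06, -1.80 and -1.53. Of 9 collagen receptors, 7 were tested, with 3, 7 and 7 higher and 3, 0 and 0 lower, and medians of 0.22, 1.33 and 1.37. Ddr2, the receptor kinase for fibrillar collagen, had the largest receptor fold at day 21 (3.77), followed by Lair1 of leukocytes (3.04).

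Markers of other cell types were counted beside the chains, against 28.5%, 57.6% and 60.7% of all tested genes called higher and 31.1%, 17.9% and 20.1% lower at days 1, 3 and 21. Of 10 markers of fibroblasts, pericytes and myofibroblasts, 1, 10 and 10 were called higher and 1, 0 and 0 lower at days 1, 3 and 21. Their sums were 768 to 859 FPKM in UIR kidneys at day 21 and 52.8 to 64.8 FPKM in sham kidneys, and at day 1 they were 120 to 183 FPKM in UIR kidneys and 89.3 to 114 FPKM in sham kidneys. Without Vim the day 1 sums overlapped, at 56.0 to 70.6 FPKM in UIR kidneys and 64.0 to 87.6 FPKM in sham kidneys, and at day 21 they were 444 to 465 FPKM in UIR kidneys and 38.5 to 47.2 FPKM in sham kidneys. Leukocyte and macrophage markers were called higher in 2, 8 and 8 of 8 and lower in 2, 0 and 0, with sums of 3047 to 4290 FPKM in UIR kidneys at day 21 and 48.9 to 60.5 FPKM in sham kidneys. Endothelial markers were called higher in 1, 3 and 7 of 8 and lower in 2, 0 and 0, with a median at day 3 of 0.34, below the 0.44 of all tested genes. Smooth muscle markers, 4 of 5 tested, were called higher in 1, 3 and 4 and lower in 2, 0 and 0. Markers of the thick ascending limb and distal tubule were called lower in 3, 5 and 4 of 6, and those of the collecting duct lower in 4, 3 and 5 of 6 and higher in 2, 0 and 0. Of 2 skeletal muscle markers tested, 0, 1 and 1 were called higher and 0 lower. The part of these cells in the chain levels was not tested.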

How the data were processed

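Kidney libraries of 6 groups, 3 each, were taken from the deposited table of FPKM values, which the authors computed per gene. Per the submitters' processing notes, HISAT2 2.0.4, Bowtie2 2.2.5, RSEM 1.2.12 and build mm9 were used, with the role of each not given in the sources used here. FPKM carries no depth, so precision comes from the 3 libraries of a group alone. Groups came from the labels, and no 2 libraries were identical.

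Log2(FPKM + 1) was fitted with limma 3.58.1 (R 4.3.3) on 6 group means over 18 libraries, with a mean-variance trend and 12 residual degrees of freedom. Genes at 1 FPKM or more in at least 3 libraries were tested (14716 of 20825), and p-values were adjusted by Benjamini and Hochberg over all of them for each comparison. The procedure was tested on simulated data. Figures were drawn with matplotlib 3.10.9 (Python 3.11.15).

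Every chain could be named. Library values were given for the main fibrillar, basement membrane, type VI, VIII, XII and XIV chains and for the 2 largest called changes in each direction, class and day, with up to 4 genes a direction from each pathway list. Members and lists were chosen with earlier results of these data known. Alternatives were pseudocounts of 0.1 and 5, no filter and a filter at 5 FPKM, median-of-ratios and TPM scaling, a replicate block, each library left out, and the sham kidneys of days 3 and 21 as control for day 1. Protein sequences and the mm9 genome were not used here.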

Additional observations from a re-analysis of the deposited data

Results flagged for a closer look

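Differences in the UIR effect between days, tested with limma, single out 6 chains. Between day 1 and day 3 the effect was higher for Col1a1 by 4.54 ± 0.60 (SE, limma adjusted p = 1.0e-05), for Col1a2 by 3.30 ± 0.46 (limma adjusted p = 1.8e-05) and for Col6a2 by 2.62 ± 0.46 (limma adjusted p = 0.00014). Between day 3 and day 21 it was higher for Col3a1 by 2.33 ± 0.59 (limma adjusted p = 0.0043), for Col6a1 by 2.28 ± 0.47 (limma adjusted p = 0.0011) and for Col1a2 by 2.16 ± 0.46 (limma adjusted p = 0.0013). In Col17a1 the day 21 effect was below that of day 3 by a difference of -0.38 ± 0.12 (limma adjusted p = 0.017), a call that was lost with a pseudocount of 0.1 (-0.85, limma adjusted p = 0.14) and without replicate 1 or replicate 2 of UIR at day 21. Col17a1 passed the filter on low values only through the UIR libraries of day 3, so this difference is not independent of that choice.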

How the results depend on the processing

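Of the counts of chains called, most stayed within 1.5 times under the alternatives. With a filter at 5 FPKM, which leaves 11463 genes, 2 chains were called higher at day 1, 17 higher at day 21 and 0 with a lower effect at day 21 than at day 3, and a pseudocount of 0.1 also left 0 of the last. Against the sham kidneys of days 3 and 21, 8 chains were called higher and 13 lower at day 1. Without a filter 5 chains were lower at day 3, 2 had a lower effect at day 3 than at day 1, 28 had a higher effect at day 21 than at day 3, and 8 were higher in the later sham kidneys. With TPM these counts were 5 lower at day 3, 2 with a lower effect at day 3 than at day 1, and 8 higher in the later sham kidneys, and over all genes 1245 had a lower effect at day 3 than at day 1. Median-of-ratios scaling gave 4 chains with a lower effect at day 3 than at day 1 and 11 higher in the later sham kidneys. Over all genes it gave 5124 higher and 4960 lower at day 3, 5484 higher and 5447 lower at day 21, 3921 with a higher and 4308 with a lower effect at day 3 than at day 1, and 3281 higher in the later sham kidneys. With 1 library left out, 4 to 8 chains were higher in the later sham kidneys, with 8 when replicate 3 of UIR at day 3 was left out. Likewise 0 to 1 had a lower effect at day 21 than at day 3, and 0 to 1 had a lower effect at day 3 than at day 1, with 1 when replicate 2 of the day 1 sham was left out. Direction turned for Col15a1 (-0.61), Col12a1 (0.41) and Col8a1 (0.93) at day 1 against the later sham kidneys, and for Col26a1 (-0.074) at day 21 under median-of-ratios scaling. The cause of these shifts was not tested, and FPKM sets no depth limit.

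Over all tested genes, the deviations of same-numbered UIR and sham libraries of a day correlated from -0.07 to 0.113. The libraries were not paired in the main fit, and such correlations cannot exclude a pairing or a shared batch. With the replicate number as a block, 3 chains were higher and 6 lower at day 1, 20 and 3 at day 3, and 26 and 3 at day 21. Of all genes called with this block, 47.6%, 76.4% and 75.2% were higher at days 1, 3 and 21. In the main fit 28.5%, 57.6% and 60.7% of all tested genes were called higher and 31.1%, 17.9% and 20.1% lower on these days. With this block Col14a1 was called at day 3 (0.57, limma adjusted p = 0.046). The day 1 calls of Col17a1 and Col26a1 were lost with it (limma adjusted p = 0.056 and 0.064).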
